A study of Mus musculus with 12 samples.

Results

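The comparison described here is what radiation added in CT26 tumours of mice that were also given Complex 1. It sets 3 libraries labelled Complex 1 and radiation (the combination) against 3 libraries labelled Complex 1 alone, 6 of the 12 libraries of the series, and the libraries were chosen by their labels only. The other 6 libraries, 3 from untreated control mice and 3 from mice given radiation alone, enter the same statistical fit and serve as a second measurement of a radiation effect, without Complex 1. CT26 cells, a mouse line derived from a colon carcinoma of the BALB/c strain, are grown as tumours in mice with an intact immune system, and Complex 1 is, by the title of the series, a platinum compound activated by X-rays. The sources used here give no dose, no time between treatment and sampling and no mouse age, and do not say whether a tumour lay inside the irradiated field. All 6 libraries are of bulk tumour tissue, so fewer cells of a type and less RNA per cell cannot be told apart. Nothing in the labels says which mouse a library came from, and the p-values therefore measure the spread between these samples, which may be technical.

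Ionising radiation breaks DNA, and cells with a working p53 protein answer by transcribing p53 target genes, which halt the cell cycle, feed back on p53, repair DNA or start cell death. DNA and RNA that reach the cytosol of damaged cells can be read by sensors such as cGAS and the RIG-I-like receptors, which switch on type I interferons and, through them, a large set of interferon-stimulated genes. Interferon and chemokines in turn draw in and arm cytotoxic lymphocytes and macrophages, and for this reason radiation is studied as a partner of immunotherapy. Platinum compounds form adducts on DNA and can feed into the same pathways.

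The 6 libraries held 15.6 to 18.9 mega counts, and the 10 genes with most counts took 4.75% to 6.17% of a library. Tested were the 13668 genes with at least 1 FPKM in at least 3 of the 12 libraries, where FPKM are counts per kilobase of gene and per mega count of the library. Differences are edgeR log2 fold changes with their standard error (SE), combination minus Complex 1, and a gene is said to rise or fall only where its Benjamini-Hochberg adjusted p over the 13668 genes was under 0.05. Markers of colon epithelium were mostly near 0. Epcam, Cdh1, Krt8, Krt19, Cdx2, Vil1, Muc2 and Cldn7 were at or under 0.44 FPKM in all 6 libraries. Krt20, a keratin of gut epithelium, stood at 66.6 to 146 FPKM. Reads of near-identical genes can also be split: 50.1% to 100% of the 31-base runs of H2-Q6, Cfb, Hspd1, Rpl5, mt-Co2, Mt2, Jund, Hba-a1, Hba-a2 and Hbb-bt occur in other genes too, and their values are uncertain for this reason. The strand setting of the counting is not given, so reads of overlapping genes cannot be told apart. Among the genes named below this touches Cdkn1a, Dglucy, Irf7, Usp18, Oasl1, Cd274, Mcm7, Ercc1, Shmt2, Ddit3, Cryab, Hspd1, Angptl7 (inside Mtor), Angptl6, P2rx3, Mest, Anp32e, Cep55, Hirip3, Ciita, H2-DMa and mt-Nd6.

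One Complex 1 library stood apart in the interferon and lymphocyte lists. Complex 1 replicate 3 had more interferon and lymphocyte RNA than the other two. The mean log2 level of the 35 tested type I interferon response genes was taken relative to the mean of the 3 Complex 1 libraries. It was -0.40, -0.34 and 0.75 in Complex 1 replicates 1, 2 and 3 and 1.09, 1.13 and 1.04 in the combination. For the interferon-gamma response the same library, at 0.87, lay above all 3 combination libraries (0.74, 0.78 and 0.77). For MHC class II genes it lay above them too, at 0.82 against -0.02, 0.35 and 0.10. The p53, cell division and cholesterol lists did not set it apart. The counts of the immune lists below are given with all libraries and without this one.

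**Figure D1:**
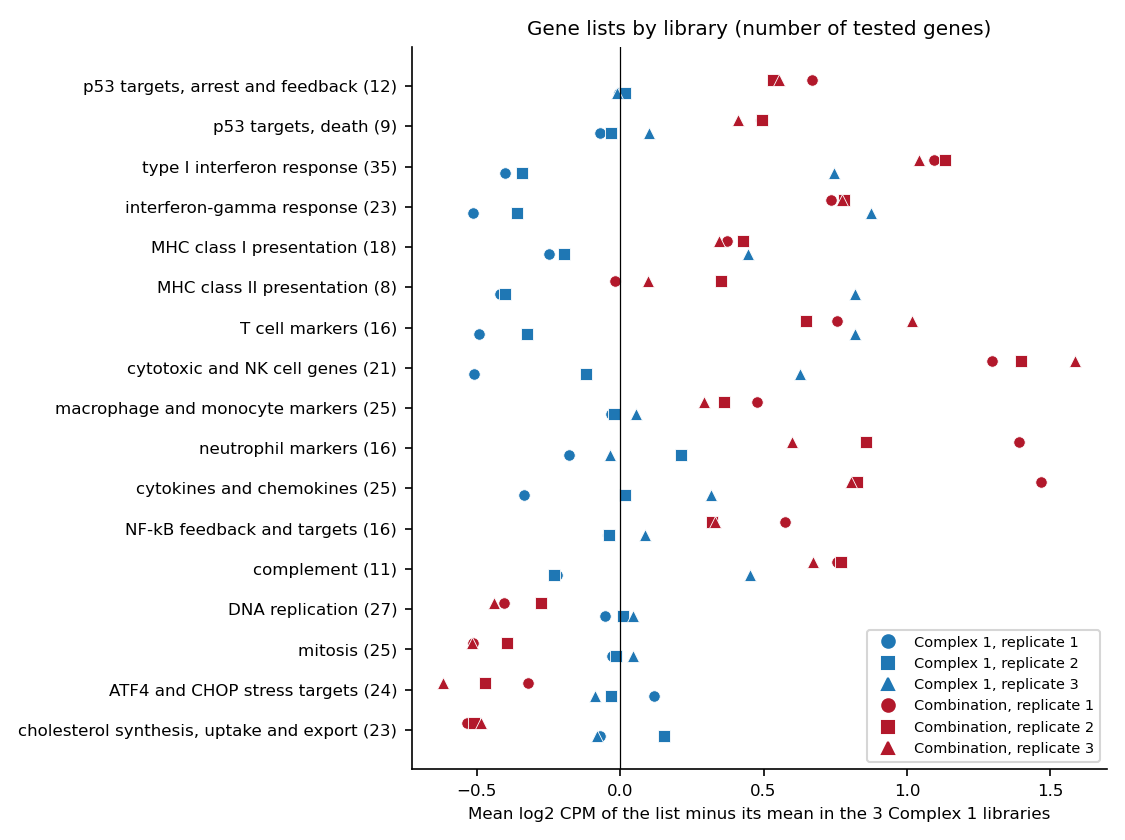
Each point is one library; the horizontal axis is the mean log2 CPM (counts per mega count) of a list's tested genes minus that list's mean in the 3 Complex 1 libraries, and rows are gene lists with their number of tested genes. Complex 1 replicate 3 (blue triangle) sits among or above the combination libraries in the interferon-gamma, MHC class II and T cell rows, while both treatment groups are tight and apart in the p53 and mitosis rows.

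Radiation added to Complex 1 raised 647 genes (4.73% of those tested) and lowered 717 (5.25%). At least a 2-fold change was seen in 130 of the genes that rose and in 22 of those that fell. The median log2 change of all tested genes was 0.00, and 4170 genes (30.5%) had FPKM that did not overlap between the 2 groups of 3. These counts depended on single libraries. Without Complex 1 replicate 3 they were 1033 higher (7.56%) and 851 lower (6.23%). Without Complex 1 replicate 1 they were 277 and 375, and without replicate 2 259 and 323. They were, without combination replicate 1 309 and 331, without combination replicate 2 425 and 455, and without combination replicate 3 433 and 368. The next paragraphs go through the gene groups in turn.

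The p53 targets rose. Of 12 tested genes of p53-driven arrest and feedback, 9 rose and none fell (median log2 0.50, against 0.00 over all genes, and against 4.73% of all tested genes that rose). With single libraries of the pair left out 5 to 7 of the list passed (5 without Complex 1 replicate 2 or combination replicate 1, 6 without Complex 1 replicate 1 or 3 or combination replicate 3). Ccng1, which encodes cyclin G1 and was among the first p53 targets described (ENSMUSG00000020326, chromosome 11, 40639379 to 40646138 in mm39), was at 28.8, 33.7 and 34.6 FPKM with Complex 1 and 74.3, 77.4 and 73.7 FPKM in the combination. That is a 2.29-fold rise with no overlap (log2 1.20 ± 0.08, adjusted p = 8.68e-06). Trp53inp1, whose product helps p53 switch on death and autophagy genes (ENSMUSG00000028211, chromosome 4, 11156431 to 11174379 in mm39), was at 1.65, 1.78 and 1.92 FPKM with Complex 1 and 5.39, 4.84 and 5.31 FPKM in the combination. The groups lay far apart at a low level, a 2.86-fold difference (log2 1.52 ± 0.10, adjusted p = 8.68e-06). Cdkn1a encodes p21, the inhibitor of cyclin-dependent kinases that carries out the p53 arrest, and its levels were 36.0, 44.6 and 38.5 FPKM with Complex 1 and 85.2, 82.0 and 79.4 FPKM in the combination. It rose 2.04-fold (log2 1.03 ± 0.13, adjusted p = 0.00102). Mdm2, the ubiquitin ligase that degrades p53 and closes its feedback loop, was at 28.8, 27.4 and 29.4 FPKM with Complex 1 and 45.5, 41.0 and 43.8 FPKM in the combination, a smaller rise (1.5-fold, log2 0.59 ± 0.06, adjusted p = 0.000500). The other members that rose were Zmat3 (0.91), Btg2 (0.74), Plk3 (0.41), Sesn2 (0.40) and Sesn1 (0.33), with log2 changes in brackets. Ppm1d, Plk2 and the p53 gene itself, Trp53, did not pass (log2 -0.17, 0.24 and -0.16). Ccng1, Trp53inp1, Cdkn1a and Mdm2 kept their calls with any 1 of the 12 libraries left out.

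Among p53 targets of cell death, 4 of 9 rose. Bax, the pore-forming protein of the mitochondrial death pathway, was at 55.3, 68.7 and 65.3 FPKM with Complex 1 and 96.9, 95.9 and 85.7 FPKM in the combination (1.45-fold, log2 0.54 ± 0.09, adjusted p = 0.00354). Eda2r, a death receptor of the TNF receptor family, was at 4.03, 3.45 and 3.04 FPKM with Complex 1 and 6.81, 7.12 and 6.94 FPKM in the combination. It rose 1.95-fold (log2 0.97 ± 0.12, adjusted p = 0.000741), and neither gene's groups overlapped. Fas, the receptor through which lymphocytes kill, was at 1.76, 2.08 and 3.76 FPKM with Complex 1 and 6.06, 5.13 and 4.91 FPKM in the combination, with Complex 1 replicate 3 the highest of its group (log2 1.06 ± 0.24, adjusted p = 0.0149). Its call was lost with some libraries left out (adjusted p = 0.0641 without Complex 1 replicate 1, 0.0720 without Complex 1 replicate 2 and 0.0624 without combination replicate 1). Aen, an exonuclease of apoptosis, rose by less (log2 0.44 ± 0.09, adjusted p = 0.0108) and stood at the threshold without Complex 1 replicate 1 (adjusted p = 0.050). Bbc3 (Puma) and Pmaip1 (Noxa), the BH3-only killers, did not pass (log2 0.01 and 0.64). Without Complex 1 replicate 3 Pmaip1 passed narrowly (log2 0.94, adjusted p = 0.0494) and Bbc3 was at log2 -0.11. The list's count was 2 without Complex 1 replicate 1 and 3 to 5 without any other single library.

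Of 13 p53 targets in DNA repair and metabolism, 7 rose, and 6 or 7 passed with any 1 library left out. Phlda3, a p53-induced brake on Akt signalling, was at 49.4, 65.1 and 63.4 FPKM with Complex 1 and 98.6, 106 and 92.3 FPKM in the combination (1.65-fold, log2 0.72 ± 0.09, adjusted p = 0.000984). Psrc1, a microtubule protein under p53 control, was at 10.3, 12.8 and 12.8 FPKM with Complex 1 and 19.3, 22 and 21.7 FPKM in the combination (1.73-fold, log2 0.79 ± 0.09, adjusted p = 0.000500). Dglucy, a mitochondrial D-glutamate cyclase, was at 5.13, 5.92 and 5.19 FPKM with Complex 1 and 8.84, 9.13 and 9.21 FPKM in the combination (1.65-fold, log2 0.72 ± 0.09, adjusted p = 0.000741). All 3 were separate between groups in all 6 libraries. Dcxr (0.83), Ak1 (0.73), Ercc5 (0.49) and Polk (0.34), the last 2 being DNA repair enzymes, made up the rest, whereas the nucleotide excision repair sensors Ddb2 (0.12) and Xpc (0.17) did not pass.

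**Figure D2:**
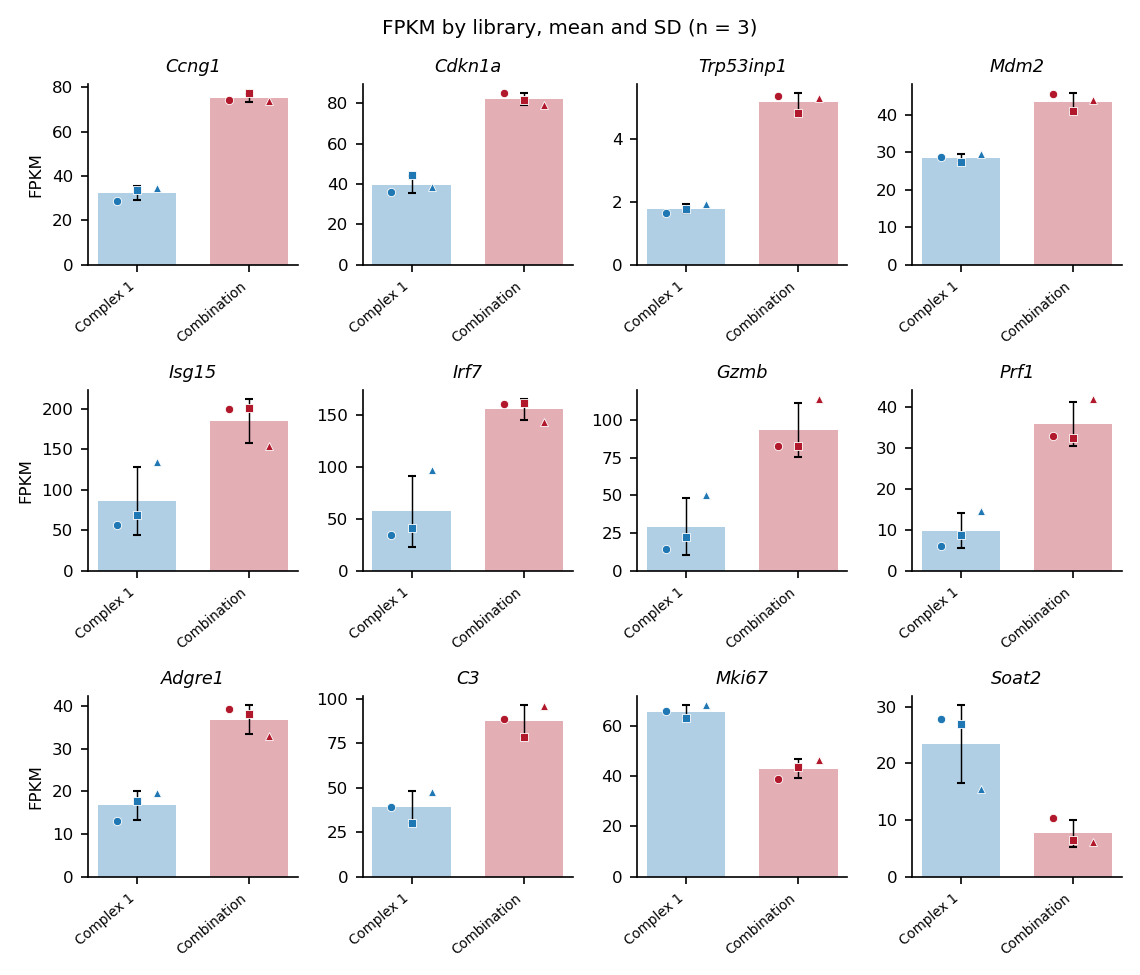
FPKM (vertical axes, linear, from 0) of 12 genes in the 3 Complex 1 and 3 combination libraries; bars are means, error bars SD (n = 3), and circles, squares and triangles are replicates 1, 2 and 3. Ccng1, Cdkn1a, Trp53inp1, Mdm2, Adgre1 and C3 are higher and Mki67 and Soat2 lower with radiation in every library; in Isg15, Irf7 and Gzmb the third Complex 1 library lies between its group and the combination.

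Genes of cell division fell. Of 25 mitosis genes 23 fell and none rose (median log2 -0.47; 5.25% of all tested genes fell), and 18 to 23 of the list passed with any 1 library of the pair left out. Mki67, the gene of the proliferation marker Ki-67, was at 66.0, 63.0 and 68.2 FPKM with Complex 1 and 39.0, 43.8 and 46.3 FPKM in the combination. Every combination library lay under every Complex 1 library, a 1.55-fold fall (log2 -0.63 ± 0.09, adjusted p = 0.00207). Kif23, a kinesin of the midbody at which daughter cells separate, was at 15.6, 16.1 and 16.2 FPKM with Complex 1 and 9.96, 10.4 and 10.7 FPKM in the combination, again with tight groups (1.56-fold lower, log2 -0.64 ± 0.07, adjusted p = 0.000529). Bub1b, a kinase of the spindle checkpoint, was at 23.2, 23.7 and 22.2 FPKM with Complex 1 and 15.2, 16 and 15.1 FPKM in the combination (1.51-fold lower, log2 -0.60 ± 0.09, adjusted p = 0.00239). All combination libraries lay under all Complex 1 libraries in these genes too. Ndc80, which ties kinetochores to microtubules, had the largest fall of the list (log2 -0.70). Plk1 (-0.32) and Kif20a (-0.21) were the members that did not pass. Cep55, the abscission scaffold, was at 26.2, 24.6 and 24.5 FPKM with Complex 1 and 15.1, 17.5 and 16.5 FPKM in the combination (log2 -0.64 ± 0.07, adjusted p = 0.000529). Stmn1, the gene of the microtubule destabiliser stathmin, was at 74.5, 77 and 81.4 FPKM with Complex 1 and 41.8, 48.7 and 42.4 FPKM in the combination (1.78-fold lower, log2 -0.83 ± 0.09, adjusted p = 0.000500). These 2, with Kif23, the histone chaperone gene Anp32e (log2 -0.63 ± 0.07, adjusted p = 0.000500) and Hirip3, a histone-binding partner of HIRA (log2 -0.64 ± 0.07, adjusted p = 0.000529), had the 5 smallest p-values of all genes that fell.

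Many mitosis genes share promoter elements read by the DREAM repressor complex, through which p53 and p21 shut off the cell cycle, and the promoter letters are printed here for this reason. RefSeq promoter sequence (GRCm38.p6, 250 bases before to 50 after the start) was at hand for 20 of the 25 genes. The cell cycle gene homology region, searched as TTTGAA or its reverse complement TTCAAA, occurred in 15 of them (75%) and in 20.2% of 27025 genes with a promoter in the table. CCAAT boxes (CCAAT or ATTGG) occurred in 17 of 20 (85%, against 41.1%). In the following stretches of 60 bases, all before the start site, capitals mark TTTGAA or TTCAAA.
Mki67 (chr7:135716445-135716504, minus strand): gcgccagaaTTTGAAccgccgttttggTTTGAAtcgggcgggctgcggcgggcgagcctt
Cdc20 (chr4:118437344-118437403, minus strand): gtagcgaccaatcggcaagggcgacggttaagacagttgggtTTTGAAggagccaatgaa
Cdk1 (chr10:69352913-69352972, minus strand): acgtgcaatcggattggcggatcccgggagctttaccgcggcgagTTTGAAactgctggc
Top2a (chr11:99024190-99024249, minus strand): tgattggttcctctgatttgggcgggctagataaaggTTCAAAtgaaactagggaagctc
Of these 4 genes, Mki67 fell by 0.63 on the log2 scale, Top2a, the topoisomerase that untangles chromosomes, by 0.47, Cdk1, the mitotic kinase, by 0.38, and Cdc20, the activator of the anaphase-promoting complex, by 0.36. A match is a run of letters and not a proven site.

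DNA replication genes fell with them: 19 of 27 passed, all lower (median log2 -0.38), and every one of the 27 had a log2 change under 0. The count was more sensitive to single libraries than that of mitosis, with 9 without Complex 1 replicate 2, 8 without combination replicate 1 and 10 without combination replicate 3. Pcna, the sliding clamp of DNA polymerase, was at 137, 136 and 137 FPKM with Complex 1 and 99.3, 109 and 98.9 FPKM in the combination (1.35-fold lower, log2 -0.44 ± 0.07, adjusted p = 0.00256). Rrm2, the regulated subunit of ribonucleotide reductase, was at 60.7, 62.3 and 68.5 FPKM with Complex 1 and 43.3, 49.2 and 42.1 FPKM in the combination (log2 -0.53 ± 0.08, adjusted p = 0.00238). The Complex 1 libraries of both genes lay above every combination library. Mcm7, of the replicative helicase, was at 55.1, 55.3 and 54.8 FPKM with Complex 1 and 40.2, 42.5 and 37.8 FPKM in the combination (log2 -0.48 ± 0.07, adjusted p = 0.00207). Pola1, the catalytic subunit of the priming polymerase, was at 11.9, 10.9 and 10.6 FPKM with Complex 1 and 7.96, 8.32 and 7.44 FPKM in the combination (log2 -0.52 ± 0.07, adjusted p = 0.00207). The groups were apart here as well. E2F-like letters (TTTNNCGC or GCGNNAAA, N being any base) were found in the promoters of 9 of 22 replication genes (40.9%) and in 5.93% of all genes in the table.

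DNA repair genes did not rise as a class beside the p53 targets. Of 36 tested genes of repair and damage signalling none rose and 13 fell (median log2 -0.25), which became 6 without Complex 1 replicate 1 or 2, 7 without combination replicate 1 and 6 without combination replicate 3. Brca2, of homologous recombination, was at 6.41, 5.64 and 5.29 FPKM with Complex 1 and 3.95, 4.23 and 3.82 FPKM in the combination (log2 -0.55 ± 0.09, adjusted p = 0.00405). Ercc1, a subunit of the nuclease that cuts platinum adducts and crosslinks out of DNA, was at 86.2, 73.2 and 63.3 FPKM with Complex 1 and 46.8, 46.2 and 45.1 FPKM in the combination (1.63-fold lower, log2 -0.71 ± 0.12, adjusted p = 0.00451). H2ax, the histone phosphorylated at double-strand breaks, was at 63.1, 75.1 and 63.6 FPKM with Complex 1 and 40.7, 47.5 and 49.2 FPKM in the combination (log2 -0.57 ± 0.11, adjusted p = 0.00702). None of these 3 overlapped between the groups. Among the others that fell were Chek2 (-0.62), Brca1 (-0.48), Chek1 (-0.45), Fancd2 (-0.41), Topbp1 (-0.32), Xrcc6 (-0.32), Mdc1 (-0.31), Mre11a (-0.30) and Parp1 (-0.25). The kinases that sit at the top of the pathway did not pass: Atm, Atr and Prkdc had log2 changes of 0.01, -0.12 and -0.07. Several of the genes that fell, Brca1, Brca2 and Chek1 among them, are also regulated with the cell cycle, and the part of cell division in their fall was not tested. Among 10 histone genes, H2ax, H2az1 (log2 -0.54 ± 0.10, adjusted p = 0.00563) and H1f0 fell and H1f2 rose, the last 2 only narrowly. H1f0 had log2 -0.36 ± 0.10, adjusted p = 0.0447 (adjusted p = 0.0504 to 0.16 without control replicate 3, Complex 1 replicates 1 or 2, radiation replicate 3 or combination replicates 1, 2 or 3), and H1f2 log2 0.63 ± 0.18, adjusted p = 0.0474. H1f2 had adjusted p = 0.0596 to 0.171 without Complex 1 replicates 1, 2 or 3, radiation replicates 1 or 3 or combination replicates 1, 2 or 3.

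Genes of cholesterol synthesis and uptake fell: 16 of 23 tested genes were lower and none higher (median log2 -0.59). With single libraries left out the count was 14, 8 and 15 without Complex 1 replicates 1, 2 and 3 and 10, 12 and 11 without combination replicates 1, 2 and 3. Soat2, which esterifies cholesterol for storage (ENSMUSG00000023045, chromosome 15, 102058961 to 102071904 in mm39), was at 27.9, 26.9 and 15.5 FPKM with Complex 1 and 10.3, 6.43 and 6.11 FPKM in the combination. That is a 3.12-fold fall (log2 -1.64 ± 0.28, adjusted p = 0.00375). Predicted genes aside, it was among the 10 largest falls of passing genes without overlap and with a mean of at least 1 FPKM. Lss, the cyclase that makes lanosterol, was at 5.25, 6.31 and 5.13 FPKM with Complex 1 and 3.64, 3.87 and 3.71 FPKM in the combination (1.51-fold lower, log2 -0.59 ± 0.09, adjusted p = 0.00232). Neither gene overlapped between groups. The synthesis enzymes fell along the chain, with Hmgcs1 (-0.72) at its start, Idi1 (-0.91), Fdps (-0.76), Fdft1 (-0.66) and Sqle (-0.72) in its middle and Cyp51 (-0.85), Msmo1 (-0.83) and Nsdhl (-0.68) towards its end. Srebf2, the transcription factor that switches these genes on, fell too (-0.40), as did its retention factor Insig1 (-0.54). The cholesterol exporters Abca1 and Abcg1 had log2 changes above 0 (0.46, adjusted p = 0.143, and 0.71, adjusted p = 0.0684) and did not pass, but Abcg1 did without Complex 1 replicate 3 (log2 1.16, adjusted p = 0.000212). Only 1 of 14 promoters at hand held the sterol regulatory element searched as TCACNCCAC or GTGGNGTGA, against 1.44% of all genes; it is that of Hmgcs1, shown with the match in capitals.
Hmgcs1 (chr13:119690189-119690248, plus strand): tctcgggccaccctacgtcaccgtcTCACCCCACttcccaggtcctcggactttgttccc

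Targets of ATF4, the transcription factor of the integrated stress response that drives amino acid synthesis and transport, fell as well: 15 of 24 passed, none higher (median log2 -0.44). Between 9 (without combination replicate 3) and 16 (without Complex 1 replicate 3) passed with a library of the pair left out, and 10 without Complex 1 replicate 1. Trib3, a pseudokinase that is among the most sensitive ATF4 targets, was at 28.3, 25.6 and 20.4 FPKM with Complex 1 and 10.8, 11 and 9.73 FPKM in the combination (2.40-fold lower, log2 -1.26 ± 0.18, adjusted p = 0.00207). Shmt2, of mitochondrial one-carbon metabolism, was at 123, 114 and 107 FPKM with Complex 1 and 67.9, 68.0 and 67.5 FPKM in the combination (1.72-fold lower, log2 -0.78 ± 0.09, adjusted p = 0.000741). Both were lower in every combination library. Psat1, of serine synthesis, was at 74.0, 69.2 and 67.5 FPKM with Complex 1 and 44.7, 48.7 and 41.9 FPKM in the combination (log2 -0.66 ± 0.09, adjusted p = 0.00152). Slc7a1, a carrier of cationic amino acids, was at 21.8, 21 and 19.1 FPKM with Complex 1 and 13.9, 14.4 and 13.1 FPKM in the combination (log2 -0.60 ± 0.08, adjusted p = 0.000984). Their groups were apart as well. Atf4 itself fell (-0.56), with Chac1 (-1.04), Mthfd2 (-0.86), Asns (-0.81), Atf5 (-0.76) and Slc7a5 (-0.65). Ddit3, which encodes CHOP, was at 37.0, 31.1 and 26.5 FPKM with Complex 1 and 23.2, 22.4 and 24.8 FPKM in the combination and did not pass (log2 -0.45 ± 0.14, adjusted p = 0.0607), except with a library left out (adjusted p = 0.0257 without control replicate 3 and 0.0202 without Complex 1 replicate 3). The chaperones of the endoplasmic reticulum changed less: of 22 genes only Herpud1 (log2 -0.37 ± 0.10, adjusted p = 0.0288) and Hsp90b1 (log2 -0.23 ± 0.07, adjusted p = 0.0461) passed, both lower. Herpud1 had adjusted p = 0.0707 to 0.123 without Complex 1 replicates 1 or 2 or combination replicates 1, 2 or 3. Hsp90b1 had adjusted p = 0.0536 to 0.166 without control replicate 1, Complex 1 replicates 1, 2 or 3, radiation replicates 1 or 3 or combination replicates 1, 2 or 3. Atf6, a sensor of the same stress, had log2 -0.22 ± 0.07, adjusted p = 0.0649 (adjusted p = 0.0314 without Complex 1 replicate 3). Hspa5, the chaperone BiP, was at 235, 238 and 219 FPKM with Complex 1 and 210.2, 194 and 197 FPKM in the combination (log2 -0.22 ± 0.10, adjusted p = 0.176).

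The type I interferon response rose. All 35 tested genes had a log2 change above 0 (0.48 to 1.57, median 0.97) and 26 passed. How many passed turned on the Complex 1 libraries: 35 of 35 without Complex 1 replicate 3 (7.56% of all tested genes rose in that fit), but 8 without Complex 1 replicate 1 and 6 without Complex 1 replicate 2, where replicate 3 is 1 of only 2 libraries. It was 11, 13 and 16 without combination replicates 1, 2 and 3. Mx2, an antiviral GTPase, was at 2.15, 2.09 and 5.66 FPKM with Complex 1 and 9.22, 10.4 and 10.3 FPKM in the combination (2.98-fold higher, log2 1.57 ± 0.29, adjusted p = 0.00615). Usp18, the protease that removes ISG15 and dampens the interferon receptor, was at 11.2, 13.2 and 26.7 FPKM with Complex 1 and 41.7, 43.2 and 38.1 FPKM in the combination (2.37-fold, log2 1.25 ± 0.24, adjusted p = 0.00729). Oasl1, an antiviral protein of the oligoadenylate synthetase family, was at 12.9, 13.8 and 23.6 FPKM with Complex 1 and 37.4, 35.3 and 31.8 FPKM in the combination (log2 1.03 ± 0.20, adjusted p = 0.00777). In each of the 3 the third Complex 1 library was the highest of its group and still under every combination library, and the calls held with any library left out. Irf7, the transcription factor that amplifies interferon production, was at 34.0, 41.4 and 96.9 FPKM with Complex 1 and 161, 162 and 144 FPKM in the combination (2.67-fold, log2 1.42 ± 0.30, adjusted p = 0.0111). Irf7 had adjusted p = 0.0548 without Complex 1 replicate 2. Mx1, the sister gene of Mx2, was at 5.17, 5.37 and 13.8 FPKM with Complex 1 and 23, 23.3 and 21.8 FPKM in the combination (2.76-fold, log2 1.47 ± 0.31, adjusted p = 0.0110). Mx1 had adjusted p = 0.0518 without Complex 1 replicate 2. Both also had their highest Complex 1 value in replicate 3. Isg15, the ubiquitin-like modifier, was at 56.1, 68.6 and 134 FPKM with Complex 1 and 200.1, 201 and 154 FPKM in the combination (2.12-fold, log2 1.08 ± 0.25, adjusted p = 0.0156). Ifit1, which binds RNA without a host cap, was at 11.4, 10.9 and 33.0 FPKM with Complex 1 and 49.3, 54.0 and 46.5 FPKM in the combination (2.67-fold, log2 1.42 ± 0.33, adjusted p = 0.0176). Isg15 lost its call at adjusted p = 0.0501 to 0.0760 without Complex 1 replicates 1 or 2 or combination replicates 1 or 2. Ifit1 lost its call at adjusted p = 0.0520 to 0.0745 without Complex 1 replicates 1 or 2 or combination replicates 1 or 2. Fitted on the 6 libraries alone, their adjusted p was 0.0507 and 0.0519.

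The interferon-stimulated response element is the DNA run through which interferon switches on its target genes, and 2 of these promoters show it in several copies. Its core, searched as GAAANNGAA or TTCNNTTTC, was in 15 of the 26 promoters at hand for the list (57.7%) and in 9.76% of all genes in the RefSeq table (GRCm38.p6). Capitals mark the core, overlapping copies included, in 60 bases before the start site.
Isg15 (chr4:156200850-156200909, minus strand): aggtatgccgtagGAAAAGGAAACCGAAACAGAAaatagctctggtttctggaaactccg
Ifit1 (chr19:34640780-34640839, plus strand): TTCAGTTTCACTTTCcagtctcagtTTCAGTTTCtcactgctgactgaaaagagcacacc
Isg15 held 3 matches in this window and Ifit1 3.

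Some genes of nucleic acid sensing rose beside the interferon genes, and which came first was not tested. Of 18 genes of nucleic acid sensing 10 rose and none fell (median log2 0.56), with 4 without Complex 1 replicate 1 or 2, 4 without combination replicate 1, 5 without combination replicate 2 and 13 without Complex 1 replicate 3. Ifih1, which encodes the RNA sensor MDA5, was at 6.89, 6.56 and 11.4 FPKM with Complex 1 and 17.1, 15.9 and 14.9 FPKM in the combination (1.9-fold, log2 0.93 ± 0.19, adjusted p = 0.00930). Adar, the editing enzyme that marks self RNA, was at 11.4, 11.5 and 15.9 FPKM with Complex 1 and 18.8, 20.2 and 20.0 FPKM in the combination (log2 0.58 ± 0.11, adjusted p = 0.00645). Tlr8, an endosomal RNA receptor, was at 3.80, 3.43 and 3.87 FPKM with Complex 1 and 6.44, 6.0 and 6.93 FPKM in the combination (1.72-fold, log2 0.78 ± 0.12, adjusted p = 0.00264). Complex 1 replicate 3 was high for Ifih1 and Adar, but for Tlr8 the 3 Complex 1 libraries lay within 3.43 to 3.87 FPKM. Dhx58 (1.04), Tlr9 (0.97), Tlr3 (0.76), Ddx58 (0.73), Tlr7 (0.53), Unc93b1 (0.53) and Ifi204 (0.46) also rose. The core of the cytosolic DNA pathway did not pass: Cgas -0.14, Sting1 0.30, Tbk1 0.14 and Irf3 -0.23. Sting1 rose (log2 0.41, adjusted p = 0.0191) and Irf3 fell (log2 -0.29, adjusted p = 0.0405) without Complex 1 replicate 3. Trex1 had no count in any of the 6 libraries.

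The interferon-gamma response gained more calls than any other list when Complex 1 replicate 3 was left out. Of 23 genes 3 rose with all libraries and 20 without Complex 1 replicate 3, where the median log2 change went from 0.65 to 1.40; none passed without Complex 1 replicate 1 or 2 or without combination replicate 1 or 3. Cxcl10, a chemokine that draws CXCR3-bearing T cells, was at 9.65, 11 and 25.3 FPKM with Complex 1 and 34.5, 31.5 and 30.8 FPKM in the combination (log2 1.05 ± 0.28, adjusted p = 0.0323). Cxcl10 had adjusted p = 0.0677 to 0.130 without Complex 1 replicates 1 or 2 or combination replicates 1, 2 or 3. Its sister Cxcl9 was at 32.8, 29.8 and 57.3 FPKM with Complex 1 and 50.9, 49.3 and 53.4 FPKM in the combination, the third Complex 1 library above the whole combination (log2 0.34 ± 0.24, adjusted p = 0.418). It passed without that library (log2 0.69, adjusted p = 0.0357). Irf8, a myeloid transcription factor, had log2 0.62 ± 0.18, adjusted p = 0.0438 (adjusted p = 0.0519 to 0.131 without control replicates 1, 2 or 3, Complex 1 replicates 1 or 2, radiation replicate 1 or combination replicates 1, 2 or 3), and Cxcl11 log2 1.08 ± 0.31, adjusted p = 0.0450 with overlapping groups (adjusted p = 0.0506 to 0.164 without control replicates 1, 2 or 3, Complex 1 replicates 1 or 2, radiation replicates 1, 2 or 3 or combination replicates 1 or 3).

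Antigen presentation did not pass with all libraries. None of 18 MHC class I genes did in edgeR (median log2 0.38, 3 at an unadjusted p under 0.05), with 10 passing without Complex 1 replicate 3, 1 without radiation replicate 2 and 1 by DESeq2. H2-T23, the non-classical molecule Qa-1, was at 35.8, 38.0 and 68.6 FPKM with Complex 1 and 77.3, 81.9 and 78.3 FPKM in the combination (log2 0.72 ± 0.22, adjusted p = 0.0528). H2-T23 had adjusted p = 0.000706 without Complex 1 replicate 3 and 0.0378 without radiation replicate 2. Nlrc5, the transactivator of class I genes, was at 17.6, 16.5 and 29.0 FPKM with Complex 1 and 29.6, 28.3 and 32.1 FPKM in the combination (log2 0.49 ± 0.21, adjusted p = 0.166). Nlrc5 had adjusted p = 0.0105 without Complex 1 replicate 3. H2-Q6, a class Ib gene, was at 1.45, 1.20 and 2.43 FPKM with Complex 1 and 3.36, 3.01 and 2.67 FPKM in the combination (log2 0.80 ± 0.27, adjusted p = 0.0748). H2-Q6 had adjusted p = 0.0106 without Complex 1 replicate 3. In these 3 genes Complex 1 replicate 3 lay near the combination. H2-K1, a classical class I molecule, was at 176, 171 and 265 FPKM with Complex 1 and 223, 244 and 201 FPKM in the combination (log2 0.10 ± 0.17, adjusted p = 0.756). None of 8 MHC class II genes passed in edgeR or DESeq2 (median log2 0.12, 0 at an unadjusted p under 0.05), and these had no common direction with all libraries. Without Complex 1 replicate 3 none passed either, but all 8 had log2 changes above 0 (0.22 to 0.82, median 0.60). Their activator Ciita was at 1.09, 1.57 and 4.09 FPKM with Complex 1 and 1.56, 2.07 and 1.87 FPKM in the combination (log2 -0.32 ± 0.46, adjusted p = 0.716). H2-DMa and H2-DMb1, the peptide editors, had log2 changes of 0.16 ± 0.20 and -0.38 ± 0.35. The summed level of the class II list was 322 to 767 FPKM in the Complex 1 libraries and 479 to 659.8 FPKM in the combination libraries, with the Complex 1 maximum in replicate 3.

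T cell markers were higher in value, without passing. All 16 of 16 tested genes had log2 changes above 0 (median 0.72), none passed in edgeR (6 at an unadjusted p under 0.05, 2 adjusted by DESeq2), and 8 passed without Complex 1 replicate 3 and 3 without radiation replicate 2. Cd3e, a chain of the T cell receptor complex, was at 0.93, 0.68 and 2.11 FPKM with Complex 1 and 1.86, 1.52 and 2.90 FPKM in the combination (log2 0.74 ± 0.51, adjusted p = 0.404). Cd8a, the co-receptor of cytotoxic T cells, was at 2.94, 3.98 and 7.61 FPKM with Complex 1 and 5.45, 7.35 and 8.63 FPKM in the combination (log2 0.54 ± 0.51, adjusted p = 0.547). Both overlapped between groups. Lck, the kinase that starts T cell receptor signalling, was at 3.22, 3.85 and 6.17 FPKM with Complex 1 and 7.46, 6.21 and 7.89 FPKM in the combination (log2 0.68 ± 0.24, adjusted p = 0.0858). Lck had adjusted p = 0.00851 without Complex 1 replicate 3 and 0.0429 without radiation replicate 2. The co-stimulator Cd28 was at 0.32, 0.3 and 0.97 FPKM with Complex 1 and 1.45, 1.22 and 1.62 FPKM in the combination (log2 1.41 ± 0.47, adjusted p = 0.0750). Cd28 had adjusted p = 0.00775 without Complex 1 replicate 3 and 0.0276 without radiation replicate 2. A second co-stimulator, Icos, was at 0.88, 0.93 and 1.85 FPKM with Complex 1 and 2.26, 2.18 and 2.60 FPKM in the combination (log2 0.92 ± 0.32, adjusted p = 0.0883). Icos had adjusted p = 0.0133 without Complex 1 replicate 3. The summed level of the T cell list was 33.1 to 78.3 FPKM in the Complex 1 libraries and 71.8 to 87.0 FPKM in the combination libraries, and the 3 genes just given were highest in Complex 1 replicate 3 within their group. The checkpoint list holds genes that restrain immune cells and also co-stimulators of T cells such as Tnfrsf18. It gave 2 calls of 15, and 6 without Complex 1 replicate 3. Lgals9, the galectin that binds TIM-3, was at 30.1, 33.7 and 37.9 FPKM with Complex 1 and 53.6, 53.9 and 51.6 FPKM in the combination (1.54-fold, log2 0.62 ± 0.10, adjusted p = 0.00304), a call that held throughout. Tnfrsf18 (GITR), at 1.30, 0.88 and 1.36 FPKM with Complex 1 and 2.48, 2.47 and 3.20 FPKM in the combination, passed narrowly (log2 1.17 ± 0.34, adjusted p = 0.0449). Tnfrsf18 had adjusted p = 0.0578 to 0.159 without control replicate 2, Complex 1 replicates 1 or 2, radiation replicate 3 or combination replicates 1, 2 or 3. Cd274, the gene of PD-L1, was at 10.9, 12.2 and 37.1 FPKM with Complex 1 and 33.7, 28.2 and 33.2 FPKM in the combination. The third Complex 1 library lay above the combination, and the gene did not pass (log2 0.64 ± 0.36, adjusted p = 0.294) unless that library was left out (log2 1.44, adjusted p = 0.000561). Havcr2, the gene of TIM-3, was at 4.60, 6.10 and 9.25 FPKM with Complex 1 and 11.4, 9.40 and 12.6 FPKM in the combination (log2 0.73 ± 0.24, adjusted p = 0.0693). Havcr2 had adjusted p = 0.00677 without Complex 1 replicate 3 and 0.0467 without radiation replicate 2.

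Cytotoxic genes rose. Among passing genes without overlap and with a mean of at least 1 FPKM, 4 neighbouring granzyme genes were in the 10 largest rises. Predicted genes were left aside. Of 21 genes of cytotoxic lymphocytes and natural killer (NK) cells 13 rose (median log2 1.14), and their summed level was 89.8 to 207 FPKM in the Complex 1 libraries and 456 to 593 FPKM in the combination libraries, above in every library. The count depended on single libraries: 1, 2 and 17 without Complex 1 replicates 1, 2 and 3, and 9, 9 and 4 without combination replicates 1, 2 and 3. Gzmf, one of a cluster of granzyme genes beside Gzmb on chromosome 14 (ENSMUSG00000015441, chromosome 14, 56442720 to 56448874 in mm39), was at 7.38, 11.3 and 10.2 FPKM with Complex 1 and 69.8, 96.2 and 97.8 FPKM in the combination. That is the largest fold change of any named gene, 9.04-fold (log2 3.18 ± 0.76, adjusted p = 0.0194). Gzmf had adjusted p = 0.0825 without Complex 1 replicate 1, 0.0696 without Complex 1 replicate 2 and 0.0510 without combination replicate 3. Its neighbours Gzmg (8.5-fold, log2 3.09 ± 0.81, adjusted p = 0.0298), Gzme (8.0-fold, log2 3.0 ± 0.66, adjusted p = 0.0133) and Gzmd (7.01-fold, log2 2.81 ± 0.67, adjusted p = 0.0192) rose with it. The levels of Gzmd were 6.29, 13.5 and 13.7 FPKM with Complex 1 and 62.8, 77.4 and 96.2 FPKM in the combination. Gzmg lost the call at adjusted p = 0.0528 to 0.115 without Complex 1 replicates 1 or 2 or combination replicates 1, 2 or 3. Gzmd lost it at adjusted p = 0.0851 without Complex 1 replicate 1, 0.0647 without Complex 1 replicate 2 and 0.0570 without combination replicate 3, and Gzme at adjusted p = 0.0627 without Complex 1 replicate 1. These 4 genes share 33.8% to 42.1% of their 31-base runs with other genes, so reads could be split among them, and with robust estimation of the spread their adjusted p was 0.0549 to 0.0964. In the 3 control libraries Gzmf ranged from 4.69 to 63.2 FPKM.

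Gzmb, the main death-inducing granzyme of activated killer cells, was at 14.4, 22.1 and 50.4 FPKM with Complex 1 and 82.9, 83.1 and 114 FPKM in the combination (3.18-fold, log2 1.67 ± 0.37, adjusted p = 0.0142). Gzmb had adjusted p = 0.0697 without Complex 1 replicate 2 and 0.0515 without combination replicate 3. Prf1, the perforin that opens the target cell for granzymes, was at 6.10, 8.61 and 14.6 FPKM with Complex 1 and 33.0, 32.4 and 42.0 FPKM in the combination (3.62-fold, log2 1.86 ± 0.41, adjusted p = 0.0131). Prf1 had adjusted p = 0.0605 without Complex 1 replicate 1 and 0.0611 without Complex 1 replicate 2. With robust estimation of the spread these 2 had adjusted p = 0.0585 and 0.0547. Gzma, a tryptase of the family, was at 15.0, 18.7 and 20.9 FPKM with Complex 1 and 52.1, 53.1 and 45.5 FPKM in the combination (2.72-fold, log2 1.44 ± 0.30, adjusted p = 0.0111). Gzma had adjusted p = 0.0511 without Complex 1 replicate 1. Il2rb, the shared receptor chain for interleukins 2 and 15, was at 7.31, 8.55 and 13.4 FPKM with Complex 1 and 21.6, 19.8 and 25.7 FPKM in the combination (2.26-fold, log2 1.18 ± 0.26, adjusted p = 0.0133). Il2rb had adjusted p = 0.0624 without Complex 1 replicate 1 and 0.0644 without Complex 1 replicate 2. In all 4 the 2 groups were apart, and the third Complex 1 library was the highest of its group. Eomes (1.32), the master regulator of NK and memory CD8 cells, Fasl (1.24), Cst7 (1.14), Gzmc (2.07) and the NK receptors Ncr1 (0.94) and Klrk1 (0.83) completed the genes that rose. Ifng (0.84, adjusted p = 0.388), Nkg7 (0.94, adjusted p = 0.157) and Gzmk (0.76) did not pass. Ifng (log2 1.94, adjusted p = 0.0315) and Nkg7 (log2 1.65, adjusted p = 0.00577) passed without Complex 1 replicate 3. Fcrl6, a receptor of cytotoxic lymphocytes, was at 0.29, 0.53 and 0.48 FPKM with Complex 1 and 1.98, 2.77 and 2.93 FPKM in the combination (5.88-fold, log2 2.56 ± 0.75, adjusted p = 0.0482). Fcrl6 had adjusted p = 0.0623 to 0.162 without control replicate 2, Complex 1 replicates 1, 2 or 3, radiation replicate 3 or combination replicates 1, 2 or 3.

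**Figure D3:**
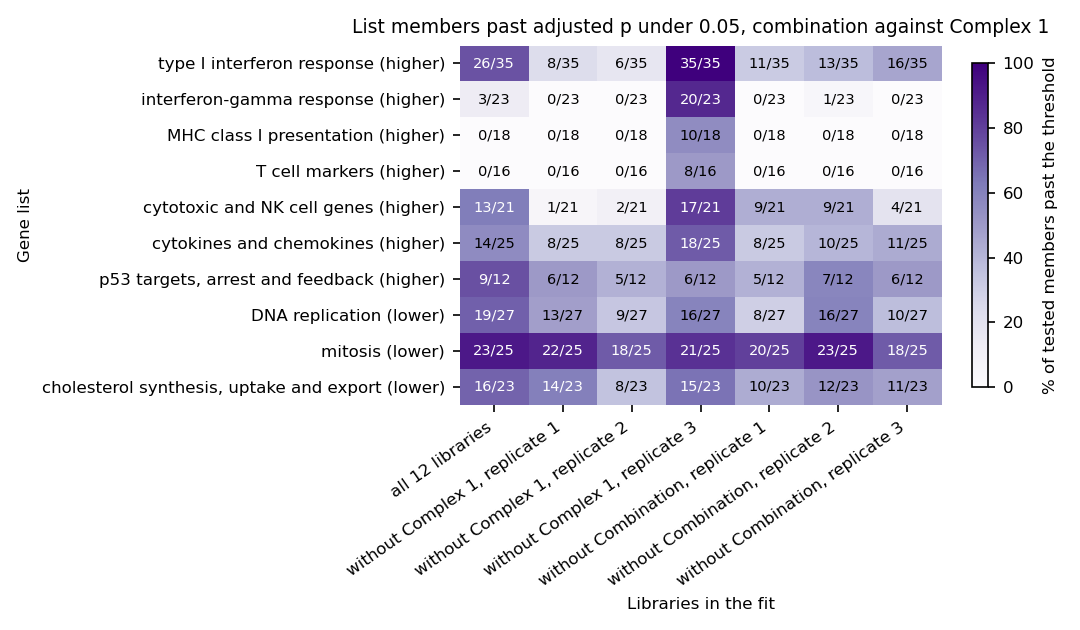
Each cell gives how many tested members of a gene list (rows) passed adjusted p under 0.05 in the direction named, of how many tested, with all 12 libraries and with 1 of the 6 compared libraries left out (columns); shading is the percentage. Mitosis stays at 18 to 23 of 25 in all columns, while the interferon-gamma, MHC class I and T cell rows fill only in the column without Complex 1 replicate 3, and the cytotoxic row empties without Complex 1 replicate 1 or 2.

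Some macrophage genes rose. Of 25 macrophage and monocyte markers 8 rose and none fell (median log2 0.37). Their summed level was 1817 to 1990.3 FPKM in the Complex 1 libraries and 2703 to 2914 FPKM in the combination libraries, and Marco had no count. The count was 5 without Complex 1 replicate 1 or 2 and 13 without Complex 1 replicate 3. Adgre1, the gene of the mouse macrophage marker F4/80, was at 12.9, 17.8 and 19.5 FPKM with Complex 1 and 39.3, 38.2 and 32.9 FPKM in the combination (2.17-fold, log2 1.12 ± 0.13, adjusted p = 0.000741). Lyz2, lysozyme of myeloid cells, was at 776, 736 and 807 FPKM with Complex 1 and 1293, 1164 and 1183 FPKM in the combination (1.55-fold, log2 0.63 ± 0.10, adjusted p = 0.00239). C1qa, a chain of complement C1q made by tissue macrophages, was at 248, 236 and 258 FPKM with Complex 1 and 359, 379.6 and 334 FPKM in the combination (1.42-fold, log2 0.51 ± 0.09, adjusted p = 0.00356). None of the 3 overlapped, and their calls held with any library left out. Apoe (0.84), Ms4a7 (0.71), Trem2 (0.51), Cd68 (0.48) and C1qb (0.39) rose too. Csf1r (0.02 ± 0.12), Mrc1 (0.05 ± 0.31), Cd163 (-0.03 ± 0.58) and Arg1 (-0.09 ± 0.35) did not pass. Without Complex 1 replicate 3 Csf1r was at -0.06, Mrc1 at -0.23, Cd163 at -0.45 and Arg1 at 0.36, none passing. Of the 25 markers 21 had log2 changes above 0, and Cx3cr1 had the lowest (-0.56 ± 0.42, adjusted p = 0.437). Gpnmb, a lysosomal glycoprotein of lipid-laden macrophages, was at 7.12, 6.29 and 7.49 FPKM with Complex 1 and 7.80, 6.51 and 8.90 FPKM in the combination (log2 0.13 ± 0.18, adjusted p = 0.697). Siglec1 (CD169), an interferon-inducible receptor of macrophages, was at 12.8, 14.8 and 12.6 FPKM with Complex 1 and 32.2, 29.1 and 35.2 FPKM in the combination and had the third smallest p of all genes that rose (2.37-fold, log2 1.25 ± 0.10, adjusted p = 4.09e-05). Vsig4, a complement receptor of resident macrophages, was at 0.37, 0.04 and 0.04 FPKM with Complex 1 and 1.49, 0.73 and 1.89 FPKM in the combination, near the limit of detection in 2 Complex 1 libraries (8.27-fold, log2 3.05 ± 0.72, adjusted p = 0.0184). Vsig4 had adjusted p = 0.0797 without Complex 1 replicate 2, 0.0565 without combination replicate 1 and 0.0672 without combination replicate 3. Markers of cytotoxic cells and macrophages thus rose beside the interferon genes, and their part in the interferon result was not tested.

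Complement genes rose in 5 of 11 cases (median log2 0.80), 8 without Complex 1 replicate 3 and 2 with any 1 of the other 5 libraries of the pair left out. C3, the central component, was at 39.2, 30.2 and 47.8 FPKM with Complex 1 and 88.9, 78.5 and 95.9 FPKM in the combination (2.21-fold, log2 1.15 ± 0.15, adjusted p = 0.00111). Cfb, of the alternative pathway, was at 2.91, 2.70 and 5.19 FPKM with Complex 1 and 9.38, 9.21 and 8.82 FPKM in the combination (2.5-fold, log2 1.32 ± 0.19, adjusted p = 0.00215). C1s1, a protease of the classical pathway, was at 80.2, 74.4 and 149.97 FPKM with Complex 1 and 193, 204 and 200.1 FPKM in the combination (log2 0.95 ± 0.26, adjusted p = 0.0334). C1s1 had adjusted p = 0.0777 to 0.132 without Complex 1 replicates 1 or 2 or combination replicates 1, 2 or 3. Of 6 tested genes of the dendritic cell list 2 rose, both co-stimulators of T cells that macrophages carry as well, and 8 further genes of it, Xcr1, Clec9a, Batf3, Flt3, Siglech, Zbtb46, Cd209a and Itgae, were too low to be tested. Cd80 was at 5.78, 5.75 and 5.51 FPKM with Complex 1 and 11.2, 9.61 and 10.3 FPKM in the combination (1.80-fold, log2 0.85 ± 0.11, adjusted p = 0.00152). Cd86 was at 3.0, 2.96 and 2.64 FPKM with Complex 1 and 4.24, 3.72 and 3.82 FPKM in the combination and stood at the threshold (log2 0.44 ± 0.13, adjusted p = 0.050). Cd86 had adjusted p = 0.0529 to 0.162 without control replicate 2, Complex 1 replicates 1, 2 or 3, radiation replicates 1, 2 or 3 or combination replicates 1, 2 or 3. Cd40, the third member by p, had log2 0.52 ± 0.28, adjusted p = 0.272 (adjusted p = 0.00531 without Complex 1 replicate 3). The B cell list had 2 tested genes, of which Cd22 rose (log2 1.17 ± 0.32, adjusted p = 0.0346). Cd22 had adjusted p = 0.0680 to 0.131 without Complex 1 replicates 1 or 2 or combination replicates 1, 2 or 3. Ighm had a log2 change of -0.21 ± 0.37 (adjusted p = 0.776). No mast cell, basophil or eosinophil marker of 7 passed in edgeR or DESeq2 (0 at an unadjusted p under 0.05), with Gata2, Tpsb2 and Cma1 at log2 0.22 ± 0.15, 0.35 ± 0.33 and 0.34 ± 0.37. When Complex 1 replicate 3 was left out, 2 of them passed, the mast cell protease genes Tpsb2 (log2 1.01, adjusted p = 0.00712) and Mcpt4 (log2 0.80, adjusted p = 0.0381), and the median went from 0.22 to 0.67. Of 14 genes of lytic cell death (pyroptosis, necroptosis) 3 rose. They were Casp4, the caspase-11 gene (log2 0.67 ± 0.16, adjusted p = 0.0164), Ninj1, which ruptures the membrane (log2 0.49 ± 0.13, adjusted p = 0.0285), and Il18 (log2 0.85 ± 0.25, adjusted p = 0.0456). Casp4 had adjusted p = 0.0734 without Complex 1 replicate 1, 0.0647 without Complex 1 replicate 2 and 0.0651 without combination replicate 1. Ninj1 had adjusted p = 0.0521 to 0.120 without Complex 1 replicates 1 or 2 or combination replicates 1, 2 or 3. Il18 had adjusted p = 0.0518 to 0.168 without control replicates 1 or 2, Complex 1 replicates 1 or 2, radiation replicate 3 or combination replicates 1, 2 or 3. Without Complex 1 replicate 3 there were 7 that rose.

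Secreted signals rose widely. Of 25 tested cytokines and chemokines 14 rose, none fell, and all 25 had log2 changes above 0 (median 0.85). The count was 8 without Complex 1 replicate 1 or 2 or combination replicate 1 and 18 without Complex 1 replicate 3. Cxcl1, a ligand of CXCR2 that attracts neutrophils, was at 26.3, 25.8 and 13.3 FPKM with Complex 1 and 246, 81.0 and 104 FPKM in the combination. All combination libraries lay above all Complex 1 libraries, with combination replicate 1 far above the other two (6.52-fold, log2 2.70 ± 0.49, adjusted p = 0.00550). Cxcl5, another CXCR2 ligand, was at 2.46, 5.47 and 4.0 FPKM with Complex 1 and 41.9, 13.9 and 14.5 FPKM in the combination, combination replicate 1 again the highest (5.84-fold, log2 2.55 ± 0.47, adjusted p = 0.00624). Ccl8, a chemokine of monocytes and T cells, was at 76.0, 79.2 and 184 FPKM with Complex 1 and 464, 410.2 and 359 FPKM in the combination (3.59-fold, log2 1.84 ± 0.29, adjusted p = 0.00300), here with the third Complex 1 library above its group. Lif, of the interleukin 6 family, was at 4.75, 5.10 and 4.48 FPKM with Complex 1 and 13.4, 9.37 and 10.5 FPKM in the combination (2.29-fold, log2 1.20 ± 0.18, adjusted p = 0.00253). Csf1, the growth factor of macrophages, was at 43.2, 42.3 and 41.0 FPKM with Complex 1 and 64.0, 61.2 and 67.4 FPKM in the combination (1.5-fold, log2 0.59 ± 0.08, adjusted p = 0.00154). These 5 kept their calls with any library left out. Il6 (log2 2.5), Csf3 (2.09), Il1a (1.25), Osm (1.18), Ccl2 (1.06), Cxcl12 (0.85), Ccl7 (0.74) and Il33 (0.71) also rose. Cxcl2, a further CXCR2 ligand, was at 6.85, 19 and 18.6 FPKM with Complex 1 and 33.1, 22.1 and 17.1 FPKM in the combination with overlap (log2 0.69 ± 0.37, adjusted p = 0.270). Il1b, the inflammasome cytokine, was at 24.3, 34.4 and 33.4 FPKM with Complex 1 and 74.1, 53.9 and 43.1 FPKM in the combination (log2 0.88 ± 0.35, adjusted p = 0.130). Il1b had adjusted p = 0.0351 without control replicate 1. Il1rl1, the receptor of interleukin 33 (ENSMUSG00000026069, chromosome 1, 40468730 to 40504575 in mm39), was at 28.9, 29.1 and 28.7 FPKM with Complex 1 and 62.7, 50.7 and 51.6 FPKM in the combination (1.88-fold, log2 0.91 ± 0.10, adjusted p = 0.000500).

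Cxcl1 and Cxcl2 are neighbours on chromosome 5 whose promoters carry the same NF-kB letters, and they are printed together because one rose and the other did not pass. The site, searched as GGANTTTCC or GGAAANTCC, was in 5 of 17 promoters at hand for the cytokine list (29.4%), in 5 of 12 for the NF-kB list (41.7%) and in 1.45% of all genes. Capitals mark it in 60 bases before the start site (RefSeq, GRCm38.p6).
Cxcl1 (chr5:90891150-90891209, plus strand): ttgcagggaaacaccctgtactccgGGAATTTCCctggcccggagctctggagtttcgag
Cxcl2 (chr5:90903778-90903837, plus strand): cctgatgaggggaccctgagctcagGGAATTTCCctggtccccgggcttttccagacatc
The match lay 61 bases before the start of Cxcl1 and 87 bases before that of Cxcl2.

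NF-kB feedback genes and targets gave 8 rises of 16 and no fall (median log2 0.46). The count fell to 2 without Complex 1 replicate 1, 1 without Complex 1 replicate 2, 1 without combination replicate 1 and 5 without combination replicate 3, and was 9 without Complex 1 replicate 3. Nfkbiz, the atypical inhibitor IkB-zeta that is needed for Lcn2 and Il6 transcription, was at 19.2, 18.9 and 20.3 FPKM with Complex 1 and 38.9, 29.1 and 31.1 FPKM in the combination (1.67-fold, log2 0.74 ± 0.14, adjusted p = 0.00653) and kept its call throughout. Nfkbie, another inhibitor, had log2 0.57 ± 0.13, adjusted p = 0.0170 (adjusted p = 0.0523 to 0.0762 without Complex 1 replicates 1 or 2 or combination replicates 1 or 3), and Traf1, an adaptor of TNF receptors, log2 0.48 ± 0.11, adjusted p = 0.0162. Traf1 had adjusted p = 0.0662 without Complex 1 replicate 2 and 0.0735 without combination replicate 1. Bcl3 (0.69), Tnfaip3 (0.65), Vcam1 (0.55), Birc3 (0.44) and Sod2 (0.42) rose too, while the subunit genes Rela (0.06), Nfkb1 (0.15), Nfkb2 (0.09) and Relb (0.19) did not pass.

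Neutrophil markers gave 4 rises of 16 tested genes (median log2 0.94). The summed level was 189 to 274 FPKM in the Complex 1 libraries and 379.8 to 624 FPKM in the combination libraries. The primary granule gene Mpo had no count. Ly6g, Camp, Ltf, Ngp and Elane were too low to be tested, with means at or under 0.17 FPKM in both groups. Of the tested genes 15 had log2 changes above 0, and Mmp9 had -0.48 (adjusted p = 0.201). Csf3r, the receptor of G-CSF, was at 6.81, 7.14 and 8.33 FPKM with Complex 1 and 18.3, 13.3 and 14.1 FPKM in the combination (2.02-fold, log2 1.01 ± 0.18, adjusted p = 0.00425). Lcn2, the iron-binding lipocalin, was at 25.8, 19.8 and 16.4 FPKM with Complex 1 and 78.8, 54.6 and 60.9 FPKM in the combination (3.09-fold, log2 1.63 ± 0.35, adjusted p = 0.0123). Lcn2 had adjusted p = 0.0557 without Complex 1 replicate 2 and 0.0518 without combination replicate 1. Cxcr2, the receptor of Cxcl1 and Cxcl5, was at 1.01, 1.03 and 1.34 FPKM with Complex 1 and 4.78, 2.90 and 2.0 FPKM in the combination (log2 1.49 ± 0.33, adjusted p = 0.0133). Cxcr2 had adjusted p = 0.0591 without Complex 1 replicate 1, 0.0611 without Complex 1 replicate 2 and 0.0678 without combination replicate 1. Wfdc21 (2.18) was the fourth. S100a8 and S100a9, the 2 chains of calprotectin, were higher in value in every combination library than in any Complex 1 library. S100a8 was at 18, 41.8 and 15.2 FPKM with Complex 1 and 87.2, 52.3 and 43.3 FPKM in the combination (log2 1.27 ± 0.39, adjusted p = 0.0556). S100a8 had adjusted p = 0.0223 without Complex 1 replicate 2, 0.0334 without radiation replicate 2 and 0.0465 without radiation replicate 3. S100a9 was at 85.2, 142 and 62.3 FPKM with Complex 1 and 291, 194 and 181 FPKM in the combination (log2 1.19 ± 0.41, adjusted p = 0.0819). S100a9 had adjusted p = 0.0290 without radiation replicate 2. The list's count was 2 without Complex 1 replicate 1, 6 without Complex 1 replicate 3, 1 without combination replicate 1 and 7 without radiation replicate 2.

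Outside the lists, 2 genes that were all but silent with Complex 1 rose to a low level. Hoatz, a gene of ciliary and sperm function, was at 0.34, 0.13 and 0.19 FPKM with Complex 1 and 1.82, 1.72 and 1.85 FPKM in the combination (7.67-fold, log2 2.94 ± 0.41, adjusted p = 0.00188). Angptl7, a secreted angiopoietin-like protein, was at 0.38, 0.18 and 0.08 FPKM with Complex 1 and 1.73, 1.39 and 1.89 FPKM in the combination (7.38-fold, log2 2.88 ± 0.39, adjusted p = 0.00160). Both calls held with any library left out, and since Angptl7 lies within Mtor, part of its reads could be of that gene. Inka2, an inhibitor of the kinase PAK4, was at 1.18, 1.46 and 1.49 FPKM with Complex 1 and 3.68, 4.70 and 4.14 FPKM in the combination (2.99-fold, log2 1.58 ± 0.14, adjusted p = 0.000134). Prelp, a leucine-rich matrix proteoglycan, was at 23, 20.4 and 24.1 FPKM with Complex 1 and 54.7, 52.8 and 61.1 FPKM in the combination (2.46-fold, log2 1.30 ± 0.12, adjusted p = 0.000294). These 2 joined Trp53inp1, Ccng1 and Siglec1 as the 5 genes that rose with the smallest p.

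By the rule used for Soat2 and the granzymes, the 10 largest falls were smaller than the largest rises. Cdsn, the adhesion protein corneodesmosin of skin, was at 7.06, 7.73 and 4.36 FPKM with Complex 1 and 2.47, 1.67 and 1.17 FPKM in the combination (3.67-fold lower, log2 -1.88 ± 0.38, adjusted p = 0.00947). Angptl6, a secreted angiopoietin-like growth factor, was at 11.7, 10.2 and 6.33 FPKM with Complex 1 and 2.99, 2.99 and 2.85 FPKM in the combination (3.24-fold lower, log2 -1.70 ± 0.36, adjusted p = 0.0117). With Soat2 and Trib3 these were the members of the 10 whose calls did not depend on a single library. Plet1, an epithelial progenitor surface protein, was at 15.3, 8.26 and 3.17 FPKM with Complex 1 and 2.95, 3.01 and 3.05 FPKM in the combination, where combination and the third Complex 1 library nearly met (log2 -1.59 ± 0.44, adjusted p = 0.0388). Plet1 had adjusted p = 0.0833 to 0.200 without Complex 1 replicates 1 or 2 or combination replicates 1, 2 or 3. The other 5 were low genes, under 5 FPKM in all 6 libraries, whose calls were lost with several libraries left out. P2rx3, an ATP-gated channel of sensory neurons, was at 4.09, 3.13 and 1.77 FPKM with Complex 1 and 0.95, 1.16 and 0.91 FPKM in the combination (log2 -1.60 ± 0.41, adjusted p = 0.0271). P2rx3 had adjusted p = 0.0635 to 0.115 without Complex 1 replicates 1 or 2 or combination replicates 1, 2 or 3. Kcne3, a potassium channel subunit, had log2 -1.61 ± 0.39, adjusted p = 0.0201. Kcne3 had adjusted p = 0.0792 to 0.0885 without Complex 1 replicates 1 or 2 or combination replicates 2 or 3. Lgr6, an R-spondin receptor of stem cells, had log2 -1.44 ± 0.40, adjusted p = 0.0363 (adjusted p = 0.0821 to 0.139 without Complex 1 replicates 1 or 2 or combination replicates 1, 2 or 3), Fibin log2 -1.54 ± 0.40, adjusted p = 0.0281 (adjusted p = 0.0729 to 0.109 without Complex 1 replicates 1 or 2 or combination replicates 1 or 3), and Mest, an imprinted gene, log2 -1.49 ± 0.39, adjusted p = 0.0293. Mest had adjusted p = 0.0639 to 0.137 without Complex 1 replicates 1 or 2 or combination replicates 1, 2 or 3.

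Several housekeeping and stress lists gave few or no calls, where 4.73% of all tested genes rose and 5.25% fell. None of 24 nuclear genes of oxidative phosphorylation passed in edgeR or DESeq2 (median log2 -0.06, 0 at an unadjusted p under 0.05), and Ndufs1, Atp5b and Sdha had log2 changes of -0.11 ± 0.06, -0.11 ± 0.07 and -0.09 ± 0.05. The mitochondrially encoded genes were lower in value, all 13 under 0 (median -0.37), without passing in edgeR (5 at an unadjusted p under 0.05). DESeq2 called 2 of them lower, mt-Co2 (adjusted p = 0.0220) and mt-Nd6 (adjusted p = 0.0204). The gene mt-Nd1 was at 3492, 2572 and 2818 FPKM with Complex 1 and 1832, 1990.1 and 2316 FPKM in the combination (log2 -0.55 ± 0.17, adjusted p = 0.0614). mt-Nd1 had adjusted p = 0.0170 without radiation replicate 2 and 0.0494 without radiation replicate 3. For mt-Nd6 it was log2 -0.38 ± 0.12, adjusted p = 0.0614 (adjusted p = 0.0294 without control replicate 1, 0.0395 without control replicate 2 and 0.0425 without radiation replicate 2), and for mt-Co2 log2 -0.46 ± 0.14, adjusted p = 0.0581. mt-Co2 had adjusted p = 0.0164 without Complex 1 replicate 3. Mitochondrial genes took 2.17% to 2.74% of counts in the Complex 1 libraries and 1.74% to 2.25% in the combination. Of 32 ribosomal protein genes 3 fell slightly, Rpl4 (log2 -0.28 ± 0.07, adjusted p = 0.0332), Rpl5 (log2 -0.29 ± 0.08, adjusted p = 0.0351) and Rps15 (log2 -0.30 ± 0.09, adjusted p = 0.0443), and none of the 3 passed without Complex 1 replicate 1 or 2 or any combination library. In the heat shock list of 18, the small heat shock gene Cryab rose, at 16.9, 13.3 and 19.2 FPKM with Complex 1 and 36.3, 34.6 and 38.4 FPKM in the combination (2.18-fold, log2 1.12 ± 0.24, adjusted p = 0.0128). Cryab had adjusted p = 0.0635 without Complex 1 replicate 2. The mitochondrial chaperonin gene Hspd1 fell (log2 -0.29 ± 0.08, adjusted p = 0.0280; adjusted p = 0.0813 to 0.109 without Complex 1 replicates 1 or 2 or combination replicates 1, 2 or 3). The co-chaperone Bag3 did not pass (log2 0.31 ± 0.12, adjusted p = 0.136).

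In the hypoxia and glycolysis list 1 of 26 fell, a share near that over all tested genes (5.25%). It was Vegfa, the main vessel growth factor, at 69.0, 56.0 and 71.7 FPKM with Complex 1 and 47.6, 43.0 and 52.0 FPKM in the combination (log2 -0.49 ± 0.14, adjusted p = 0.0412). Vegfa had adjusted p = 0.0549 to 0.140 without Complex 1 replicates 1 or 3, radiation replicate 1 or combination replicates 1, 2 or 3. Pfkfb3 (0.59 ± 0.22; adjusted p = 0.0341 without Complex 1 replicate 3 and 0.0463 without radiation replicate 2) and Hk1 (0.29 ± 0.11; adjusted p = 0.0170 without Complex 1 replicate 3), both of glycolysis, did not pass with all libraries. In the NRF2 list 1 gene of 16 rose, a share near that over all tested genes (4.73%). It was Fth1, the ferritin heavy chain, at 589, 535 and 768 FPKM with Complex 1 and 907, 811 and 931 FPKM in the combination (log2 0.46 ± 0.13, adjusted p = 0.0409). Fth1 had adjusted p = 0.0506 to 0.162 without control replicate 2, Complex 1 replicates 1 or 2, radiation replicate 3 or combination replicates 1, 2 or 3. In the same list G6pdx, of the pentose phosphate pathway, had log2 0.23 ± 0.08, adjusted p = 0.0932 (adjusted p = 0.0194 without Complex 1 replicate 3), and the metallothionein gene Mt2 log2 0.66 ± 0.25, adjusted p = 0.116. Mt2 had adjusted p = 0.0138 without Complex 1 replicate 1. Among 17 immediate early genes Jund, a subunit of AP-1, rose from 49.1, 65.2 and 62.7 FPKM to 77.7, 77.7 and 78.0 FPKM (log2 0.38 ± 0.09, adjusted p = 0.0235). Jund had adjusted p = 0.0567 to 0.0740 without Complex 1 replicate 1 or combination replicates 1, 2 or 3. Ier3 rose too (log2 0.62 ± 0.17, adjusted p = 0.0380; adjusted p = 0.0503 to 0.143 without control replicate 2, Complex 1 replicates 1, 2 or 3 or combination replicates 1, 2 or 3). Myc did not pass (log2 -0.33 ± 0.11, adjusted p = 0.0645). Myc had adjusted p = 0.0133 without Complex 1 replicate 3.

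Stromal lists gave few calls. Of 27 fibroblast and matrix genes 2 rose and 2 fell, shares near those over all tested genes (4.73% and 5.25%). Dcn, the proteoglycan decorin, rose from 46.5, 34.2 and 33.7 to 56.3, 62.5 and 64.5 FPKM (1.58-fold, log2 0.66 ± 0.13, adjusted p = 0.00777) together with Thy1 (0.60). The collagenase gene Mmp13 fell (log2 -0.70 ± 0.17, adjusted p = 0.0206). Mmp13 had adjusted p = 0.0639 to 0.0889 without Complex 1 replicates 1 or 2 or combination replicates 2 or 3. Acta2, smooth muscle actin, fell from 6.43, 4.52 and 4.23 to 3.62, 2.5 and 1.93 FPKM (log2 -0.94 ± 0.23, adjusted p = 0.0218). Acta2 had adjusted p = 0.102 without Complex 1 replicate 1, 0.0770 without combination replicate 2 and 0.0885 without combination replicate 3. Collagen genes Col1a1, Col1a2 and Col3a1 had log2 changes of -0.02, 0.11 and 0.20. Of 13 endothelial markers 1 fell, against 5.25% of all tested genes. It was the transcription factor gene Sox18, at 3.27, 5.26 and 2.79 FPKM with Complex 1 and 2.03, 1.81 and 2.13 FPKM in the combination (log2 -0.94 ± 0.24, adjusted p = 0.0252). Sox18 had adjusted p = 0.0611 to 0.117 without Complex 1 replicate 2 or combination replicates 1, 2 or 3. Kdr, a VEGF receptor (-0.46 ± 0.20; adjusted p = 0.0364 without Complex 1 replicate 3), and Tie1 (-0.68 ± 0.32) did not pass (median of the list -0.32). Red cell genes were lower in value (median log2 -1.36, summed level 7.83 to 25.8 FPKM in the Complex 1 libraries and 5.18 to 10.3 FPKM in the combination libraries) and none passed in edgeR or DESeq2 (1 at an unadjusted p under 0.05), with Hba-a2 at log2 -2.81 ± 0.95, Hba-a1 -1.16 ± 0.56 and Hbb-bt -1.57 ± 0.91. Traces of muscle, fat and skin did not pass either: Acta1 was at 0.07, 0.13 and 1.11 FPKM with Complex 1 and 1.15, 5.10 and 0.28 FPKM in the combination (2.29 ± 1.27), Mylpf had 0.80 ± 0.65 and Krt10 -0.17 ± 0.32. Fabp4 had log2 -0.73 ± 0.28, adjusted p = 0.120 (adjusted p = 0.0309 without Complex 1 replicate 3). Of the colon genes, Krt18 had log2 -0.45 ± 0.28, adjusted p = 0.336 (adjusted p = 0.0479 without Complex 1 replicate 3), Krt20 -0.10 ± 0.24 and Lgals4 -0.06 ± 0.20.

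Radiation was also applied without Complex 1 in this series, and the 2 effects can be set side by side because radiation against control and combination against Complex 1 share no library. Radiation alone raised 1010 genes (7.39%) and lowered 800 (5.85%). Of the 647 genes that rose in the combination over Complex 1, 437 (67.5% of these, 43.3% of the 1010) also rose with radiation alone, and 624 (96.4%) had the same sign. Of the 717 that fell, 411 (57.3% of these, 51.4% of the 800) fell with radiation alone and 711 (99.2%) had the same sign. Over all 13668 tested genes 74.8% had the same sign, and Pearson's r across genes was 0.484, where genes are not independent replicates. Only 2 genes rose in the combination and fell with radiation alone, Jund (radiation alone -0.30 ± 0.09, adjusted p = 0.0490) and H1f2 (-0.57 ± 0.18, adjusted p = 0.0499). The median of the 647 was 0.57 with and 0.53 without Complex 1, and that of the 717 -0.41 and -0.31. The genes had been picked by the first value of each pair.

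**Figure D4:**
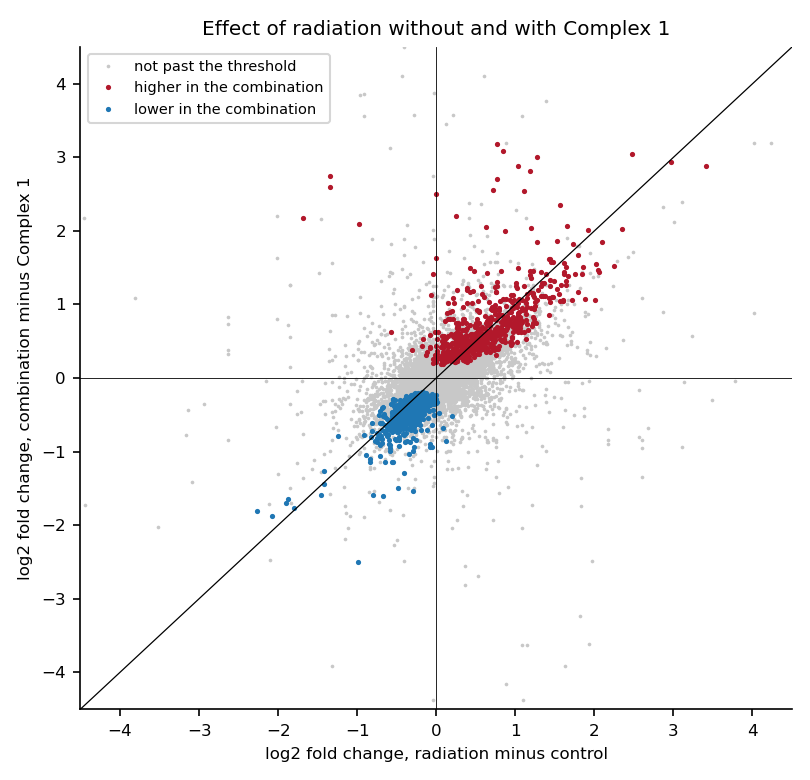
Each point is 1 of 13666 tested genes; the horizontal axis is the log2 fold change of radiation against control, the vertical axis that of the combination against Complex 1, 2 genes lie outside the axes, and the diagonal marks equal effects. Genes that rose (red, 647) and fell (blue, 717) lie mostly in the upper right and lower left fields.

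The difference between the 2 radiation effects, (combination minus Complex 1) minus (radiation minus control), was tested gene by gene. In edgeR no gene passed (0 of 13668, 0%), with 601 genes at an unadjusted p under 0.05. DESeq2 called 6 and edgeR without the filter on low genes 163. The 6 genes of DESeq2 were Il1rl1 (adjusted p = 0.0104), Jund (0.0104), Gatm (0.0125), H1f2 (0.0156), Nfil3 (0.0187) and the heat shock gene Hspa1b (0.0251). Of the 163 genes, 151 were among the 13668 and 68 of these are members of the lists or named here. With the filter, none of the other edgeR fits run called a gene, with other scalings, the replicate block, robust estimation or any 1 library left out. A difference between the radiation effects with and without Complex 1 thus depended on the test and the filter. The fit without the filter took in 31727 genes, many of them with few counts, and its calls are not taken as results here. For the p53 genes the log2 changes side by side were as follows: Ccng1 1.20 ± 0.08 with and 1.29 ± 0.08 without Complex 1, Trp53inp1 1.52 ± 0.10 and 1.64 ± 0.10, Mdm2 0.59 ± 0.06 and 0.48 ± 0.06, and Cdkn1a 1.03 ± 0.13 and 0.66 ± 0.13. Type I interferon genes had medians of 0.97 with and 1.13 without, and the interferon-gamma response 0.65 and 1.00. Without Complex 1 replicate 3 the first value of each pair was 1.37 and 1.40. The order within both pairs thus turned on that library. Medians were, for mitosis -0.47 and -0.31, replication -0.38 and -0.25, cholesterol -0.59 and -0.40, and cytotoxic genes 1.14 and 0.88. Radiation replicate 2 was low in lymphocyte genes, at 0.08 on the cytotoxic scale above against 1.19 and 1.19 in the other radiation libraries. It was low for the interferon-gamma response too (0.07 against 0.80 and 0.89), which bears on the medians of these lists. For type I interferon genes it was not low (0.98 against 0.95 and 1.06).

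The 5 smallest unadjusted interaction p are given as values, none of which passed in edgeR with the filter (adjusted p of 0.939 or more); Plekhf1 is the 1 of the 5 that DESeq2 did not call. Gatm, of creatine synthesis, was at 35.3, 33.2 and 32.4 FPKM in the control libraries, 58.8, 55.7 and 58.5 with radiation alone, 40.4, 40.4 and 42.5 with Complex 1 and 49.5, 52.2 and 53.5 in the combination. Radiation raised it in both settings, by 0.75 ± 0.06 without and 0.31 ± 0.06 with Complex 1 (unadjusted p = 0.000152 for the difference). Jund was at 75.2, 87.5 and 75.3 FPKM in the control libraries, 65.8, 62.8 and 67.8 with radiation alone, 49.1, 65.2 and 62.7 with Complex 1 and 77.7, 77.7 and 78.0 in the combination (difference 0.68 ± 0.13, unadjusted p = 0.000190). Il1rl1 stood at 27.1, 25.3 and 29.2 FPKM in the control libraries, 31.1, 28.6 and 36.0 with radiation alone, 28.9, 29.1 and 28.7 with Complex 1 and 62.7, 50.7 and 51.6 in the combination. The combination was above the 9 other libraries (0.71 ± 0.14, unadjusted p = 0.000206). Plekhf1, an endosomal protein, was at 5.54, 5.69 and 5.57 FPKM in the control libraries, 4.58, 4.98 and 5.59 with radiation alone, 4.31, 4.30 and 4.48 with Complex 1 and 6.45, 6.08 and 5.45 in the combination (unadjusted p = 0.000302). The linker histone gene H1f2 was at 16.3, 26.0 and 15.7 FPKM in the control libraries, 12.5, 14.8 and 12.7 with radiation alone, 7.78, 10.4 and 9.05 with Complex 1 and 13.8, 12.7 and 16 in the combination (unadjusted p = 0.000413).

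A group of inflammatory genes had its highest level in the combination. The difference of effects did not pass for them in edgeR with the filter or in DESeq2. Without the filter edgeR called it for Cxcl1 (adjusted p = 2.27e-44), Lcn2 (2.7e-30) and Lif (6.73e-06). With 3 libraries a group, and an unadjusted p of 0.0162 for Cxcl1 with the filter, such small values cannot be relied on. Cxcl1 was at 12.6, 6.11 and 6.29 FPKM in the control libraries, 12.5, 6.42 and 24.4 with radiation alone, 26.3, 25.8 and 13.3 with Complex 1 and 246, 81.0 and 104 in the combination. Radiation changed it by 0.77 ± 0.52 without Complex 1 (adjusted p = 0.360) and 2.70 ± 0.49 with it (difference, unadjusted p = 0.0162). Lcn2 was at 11.2, 7.10 and 6.70 FPKM in the control libraries, 10.6, 2.94 and 12 with radiation alone, 25.8, 19.8 and 16.4 with Complex 1 and 78.8, 54.6 and 60.9 in the combination (difference, unadjusted p = 0.00727). Lif was at 5.68, 3.39 and 3.67 FPKM in the control libraries, 5.67, 4.35 and 5.54 with radiation alone, 4.75, 5.10 and 4.48 with Complex 1 and 13.4, 9.37 and 10.5 in the combination (unadjusted p = 0.00331). S100a8 was at 2.12, 1.66 and 2.44 FPKM in the control libraries, 2.57, 0.84 and 4.56 with radiation alone, 18, 41.8 and 15.2 with Complex 1 and 87.2, 52.3 and 43.3 in the combination. It was low in all 6 libraries without Complex 1. In the other direction Hspa5 and Ddit3, which radiation alone lowered by 0.62 and 0.98 on the log2 scale, had no call on top of Complex 1 (difference, unadjusted p = 0.0139 and 0.0170, of which edgeR without the filter called Ddit3). Cxcl9 rose by 1.17 ± 0.24 with radiation alone and had 0.34 ± 0.24 on top of Complex 1, where the third Complex 1 library lay above the combination. Mitochondrially encoded genes were lower in value on top of Complex 1 (median -0.37) and higher without it (0.18). Only radiation replicate 2 lay above the control libraries. The list's mean log2 level, relative to the Complex 1 libraries, was -0.79, -0.26 and -0.72 with radiation alone. In the control libraries it was -0.70, -0.57 and -0.81, so radiation replicates 1 and 3 lay within the control range. Of these 13 genes 7 had an unadjusted interaction p under 0.05, and genes of a list are not independent replicates. So did 9 of 18 heat shock and 9 of 25 macrophage genes, against 601 of all 13668 (4.4%).

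**Figure D5:**
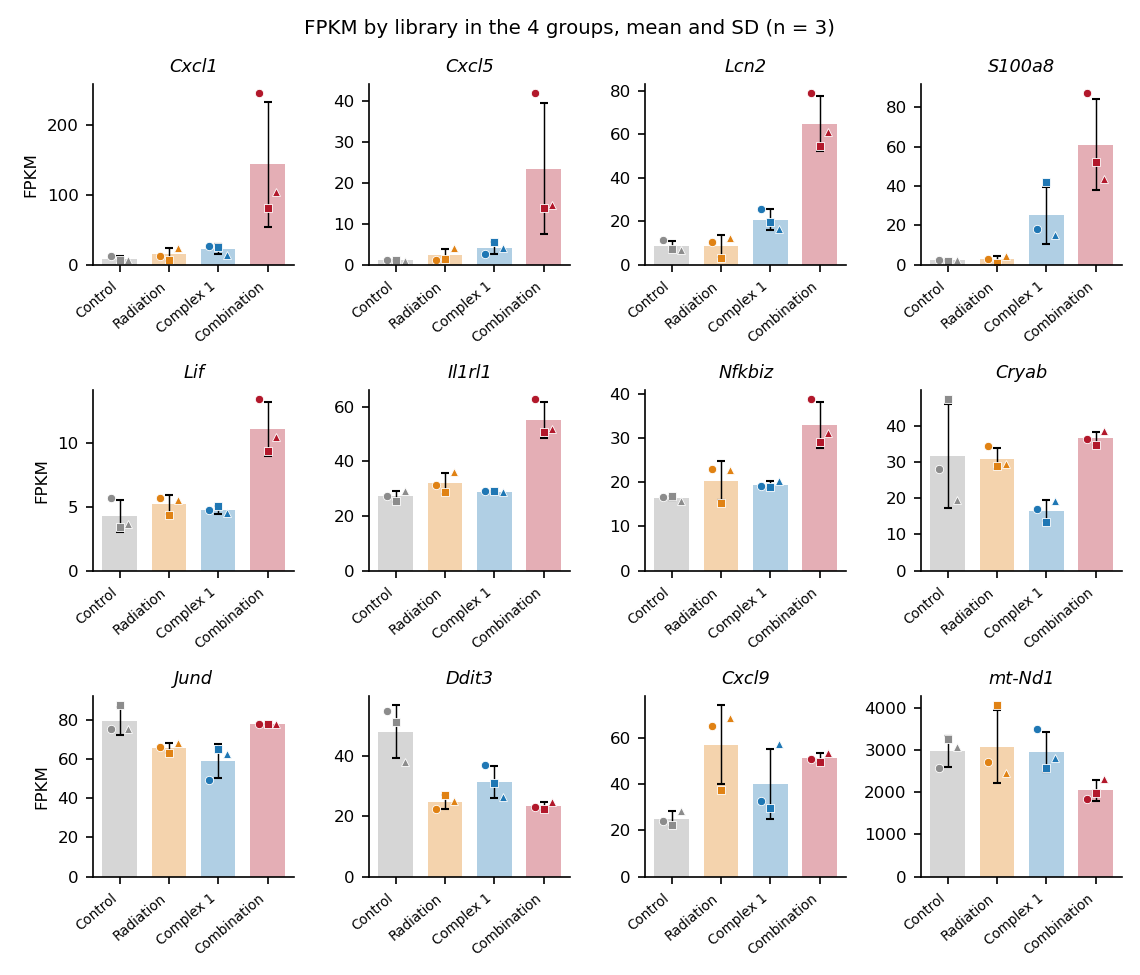
FPKM (vertical axes, linear, from 0) of 12 genes in all 4 groups; bars are means, error bars SD (n = 3), and circles, squares and triangles are replicates 1, 2 and 3. Cxcl1, Cxcl5, Lcn2, Lif and Il1rl1 are highest in the combination libraries, S100a8 is low in both groups without Complex 1, and Jund and Cryab are lower with Complex 1 than in the combination.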

How the data were processed

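Bulk RNA from 12 CT26 tumour libraries, 3 in each of 4 groups, was measured by sequencing of total RNA with the NEB Next Ultra RNA kit, per the labels' protocols. The deposited table holds raw counts per gene, and reads were aligned with STAR 2.5.3a to mm39, counted with HTSeq 2.0.1 and compared with DESeq2, per the submitters' processing notes. The authors also deposited FPKM, which equal counts per kilobase and per mega count of the library to within 0.005. Here edgeR 4.0.16 (R 4.3.3; TMM scaling, quasi-likelihood test, 1 mean per group, all 12 libraries) was fitted to the counts as deposited, for the 13668 of 55415 entries with at least 1 FPKM in at least 3 libraries. Entries with no symbol (1492, at most 0.0706% of a library's counts) were treated like the others in the fit and were not named. The SE is the log2 change divided by the root of the F statistic. P-values were adjusted over all tested genes.

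The text names the 10 largest rises and falls among passing genes without overlap and with a mean of at least 1 FPKM in the higher group, the 5 smallest p in each direction and of the interaction, the 3 smallest p in each of 41 gene lists, and 30 further genes chosen for their role. Predicted genes were counted and not named. A few genes that count in the lists are not reported here by name. Other list members named were picked after their values were seen. The members and lists were chosen with earlier results of these data known. Alternatives were other scalings, limma 3.58.1 on log2(FPKM + 1) and log2(FPKM + 0.1), DESeq2 1.42.0, no filter, a length trend, robust estimation, a replicate block, the 6 libraries alone, and each library left out; leaving out control or radiation libraries and the list counts without each library were added after seeing the data.

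On simulated counts for this comparison (13668 genes, of which 100 were changed by each fold), the test called 49% of genes changed 1.5-fold and 75% of those changed 2-fold, with 5 unchanged genes among 129 calls. Replicates differed by more than sampling noise. The 31-base runs came from GENCODE M21 transcripts, and promoter windows from RefSeq.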

Additional observations from a re-analysis of the deposited data

How the results depend on the processing

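Without the filter on low genes 1246 genes were higher, and leaving out 1 library at a time gave 259 to 1033 higher and 323 to 851 lower genes. The lowest counts came without Complex 1 replicate 2 and the highest without Complex 1 replicate 3. The interaction called 6 genes with DESeq2 and 163 without the filter, and 0 in every other fit. Of the 166 genes that the naming rule chose 114 passed, none of these changed direction in the alternatives, and 62 of them passed in all. Among the fits with a library left out, only those without 1 of the 6 compared libraries were counted here. The others were lost mostly with fewer libraries: 46 without Complex 1 replicate 2, 44 without Complex 1 replicate 1, 38 without combination replicate 1, 21 with robust estimation of the spread and 22 with limma on log2(FPKM + 0.1). Of the 663 tested genes in the 41 lists 223 passed, and none of these changed direction with 1 of the 12 libraries left out. Calls were lost for 121 of the 223 without Complex 1 replicate 2, 106 without Complex 1 replicate 1, 103 without combination replicate 1, 93 without combination replicate 3, 75 without combination replicate 2, 18 without Complex 1 replicate 3 and 4 to 20 without a control or radiation library. Without Complex 1 replicate 3, 93 of the other list genes passed. Of those that did not pass, 24 to 39 changed sign with 1 library of the pair left out.

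Replicate numbers did not pair the libraries: the deviations of same-numbered Complex 1 and combination libraries correlated at -0.0097, 0.030 and 0.017 across genes. With the replicate block 744 genes were higher and 774 lower.

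Of the 166 genes, 6 that did not pass had log2 changes of both signs with 1 library left out. The lowest and highest values were -0.62 and 0.22 for H2-DMb1, -0.65 and 0.45 for Ciita, -0.33 and 0.28 for Krt20, -0.29 and 0.044 for Lgals4, -0.42 and 0.068 for Krt10, and -0.017 and 0.34 for H2-K1. The sign turned without Complex 1 replicate 3 for H2-DMb1 and Ciita, and without Complex 1 replicate 2 for H2-K1. It turned without Complex 1 replicate 1 for Krt20 (0.28) and Lgals4 (0.022), without combination replicate 1 or 2 for Lgals4 (0.044 and 0.039), and without Complex 1 replicate 2 or combination replicate 3 for Krt10 (0.068 and 0.040). The cause was not tested. At these depths 3 counts of a gene of 2 kilobases are 0.0795 to 0.0961 FPKM, so that differences among genes near this level, such as Vsig4 with Complex 1, were not measurable.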
